A study of Platycodon grandiflorus with 6 samples.

Results

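The unigenes of *Platycodon grandiflorus* that the deposited annotation places in the ABI3VP1 family of transcription factors, the plant proteins with a B3 DNA binding domain, were compared between leaves and callus. Of 152777 unigenes, 152 carried this family label, and 1 of them was left out because its closest match in the NR protein database came from Arachis (peanut), so that 151 members were described. They comprised 37 single unigenes and 114 contigs in 27 clusters, where a cluster is a set of contigs that share a CL number in the assembly, and therefore 64 of the 94586 clusters and single unigenes. The 3 leaf libraries came from the original plants, and the 3 callus libraries came from tissue induced from stems with nodes on MS medium with 1.0 mg/L of the auxin NAA and 0.5 mg/L of the cytokinin 6-BA and cultured for 50 d. No library was made from the stem explants, so the tissue of origin and the culture cannot be told apart in the difference between the tissues. Replicate numbers only name the libraries and do not pair a leaf library with a callus library.

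B3 proteins bind short DNA elements and act at several steps of plant development. In Arabidopsis, VAL1 and VAL2 recruit Polycomb repression to the seed genes of the LEC2, ABI3 and FUS3 network after germination, LEC2 itself can induce somatic embryos, VRN1 keeps the flowering repressor FLC silent after cold, and REM16 promotes flowering. Auxin response factors (ARFs) carry a B3 domain of their own with which they bind auxin response elements.

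The expected counts, which are RSEM estimates of read pairs per unigene, summed to between 17963458 and 19444638 per library. Leaf marker genes (chlorophyll a-b binding proteins and the small subunit of Rubisco) took between 25820 and 30870 CPM (expected counts scaled to a library total of 1e6) in leaves and between 9670 and 10050 in callus, so callus also held transcripts of these genes, at a lower level. Leaf replicate 1 stood apart in that 1.72% of its counts fell on unigenes with an Arachis match, against 0.67% to 0.78% in the other libraries. A lower count in such bulk tissue can come from fewer cells of a type or from less RNA per cell, which cannot be told apart here.

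A B3 domain was recognised by Pfam in 129 of the 151 members, 13 members had no Pfam entry and 9 had another one. The members were between 218 and 7998 bp long with a median of 1636 bp, against 1042 bp over all unigenes. By their SwissProt match, 11 members were VAL proteins, 5 were LEC2, 31 were REM or VRN1 proteins, 8 were ARFs, 91 were other B3 proteins named only by a rice or Arabidopsis locus, 1 was a ferric reduction oxidase and 4 had no match. No member was matched to ABI3, FUS3, NGA, RAV or TEM in SwissProt. Counts above 0 were listed in all 6 libraries for 65 members and in no library for 3.

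B3 transcripts were more abundant in callus than in leaves when all members were summed. Members took 446, 413 and 461 CPM in leaf replicates 1 to 3 and 543, 662 and 611 in callus replicates 1 to 3. Every callus library lay above every leaf library, with means of 439.8 ± 24.3 (SD, n = 3) in leaves and 605 ± 59.7 (SD, n = 3) in callus. The groups, described here without a test, did not move alike. The VAL group was lower in callus, with means of 150.4 CPM in leaves and 108 in callus and no overlap between the tissues. The REM and VRN1 group had means of 51.6 and 116, and the other B3 proteins had means of 194 and 333, both without overlap and higher in callus. The LEC2, ARF and unmatched groups overlapped between the tissues.

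**Figure D1:**
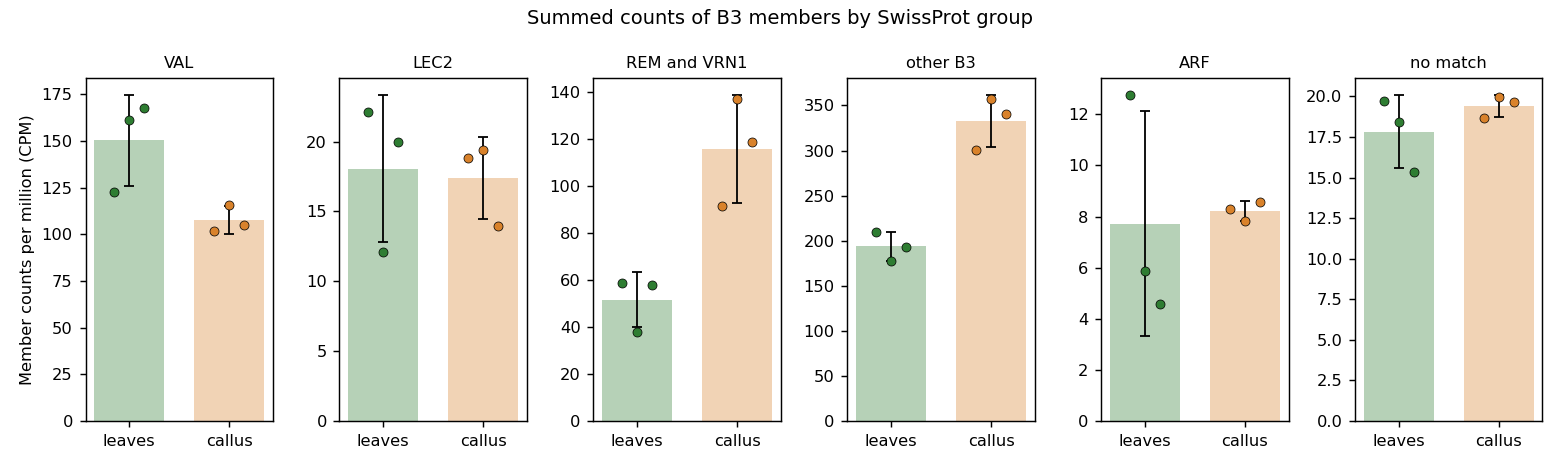
Summed counts of the members of 6 SwissProt groups in CPM (vertical axes from 0, each with its own scale). Points are the 3 leaf (green) and 3 callus (orange) libraries, bars are means and error bars are SD. The VAL points of callus lie below those of leaves, and the points of REM and VRN1 and of the other B3 proteins lie above them.

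Clusters and single unigenes were then tested with edgeR, where all contigs of a CL number were summed and a call needed an adjusted p of 0.05 or less. FPKM values of a cluster are sums over its contigs with the family label, while fits use all its contigs unless stated otherwise. Of the 64 features, 48 passed the filter on low counts and could be tested. 17 were higher in callus, which is 35.4% of those tested beside 22.0% of all features tested, and 2 were lower, which is 4.17% beside 20.8%. The median log2 fold change of callus over leaves was 0.91 over the 48 features and -0.05 over all features, and 36 of the 48 had a positive sign. DESeq2 called 19 higher and 1 lower of 54 features with an adjusted p, which is 35.2% and 1.85% beside 17.0% and 16.0% of all features. In 24 of the 48 features (50.0%) every callus library lay above every leaf library, and in 5 (10.4%) every one lay below, beside 31.1% and 29.1% of all features tested.

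The number of calls depended on which library was left out. Without callus replicate 2 and without callus replicate 3, 9 features were called higher, all of them among the 17, and 0 lower. Without callus replicate 1 these counts were 15, of which 14 were among the 17, and 1. Without leaf replicate 1 they were 18 and 3, without leaf replicate 2 they were 15 and 2, and without leaf replicate 3 they were 14 and 2. Over all features the share called higher was 14.2% without callus replicate 2 and 13.0% without callus replicate 3. 9 of the 17 features higher in callus were called in each of the 6 fits that left out a library. In 7 of the 64 features the family-labelled contigs held under 50% of the counts of their cluster. With only the labelled contigs summed, 14 features were higher and 1 was lower of 45 tested, beside 22.0% and 20.8% of all features.

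At the level of single contigs, 92 of the 151 members were tested, 23 were higher in callus and 4 were lower, which is 25.0% and 4.35% beside 14.2% and 12.3% of all unigenes tested. The median log2 fold change was 0.68 over these members and -0.10 over all unigenes tested. The counts of 23 and 4 fell to 14 and 1 without callus replicate 1, to 4 and 0 without callus replicate 2 and to 1 and 0 without callus replicate 3. Over all unigenes the share called higher fell to 6.79%, 2.35% and 0.899% in the same fits, and the share called lower to 5.46%, 1.64% and 0.611%. Without leaf replicate 2 there were 18 higher and 1 lower, beside 12.2% and 8.91% of all unigenes tested. Without leaf replicate 1, the library with the largest share of Arachis matches, there were 25 higher and 5 lower, beside 14.0% and 11.9%. Of the 23 contigs called higher, 11, 4 and 1 were also called without callus replicates 1, 2 and 3, so that most calls of single contigs given here did not hold without callus replicate 2 or 3.

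**Figure D2:**
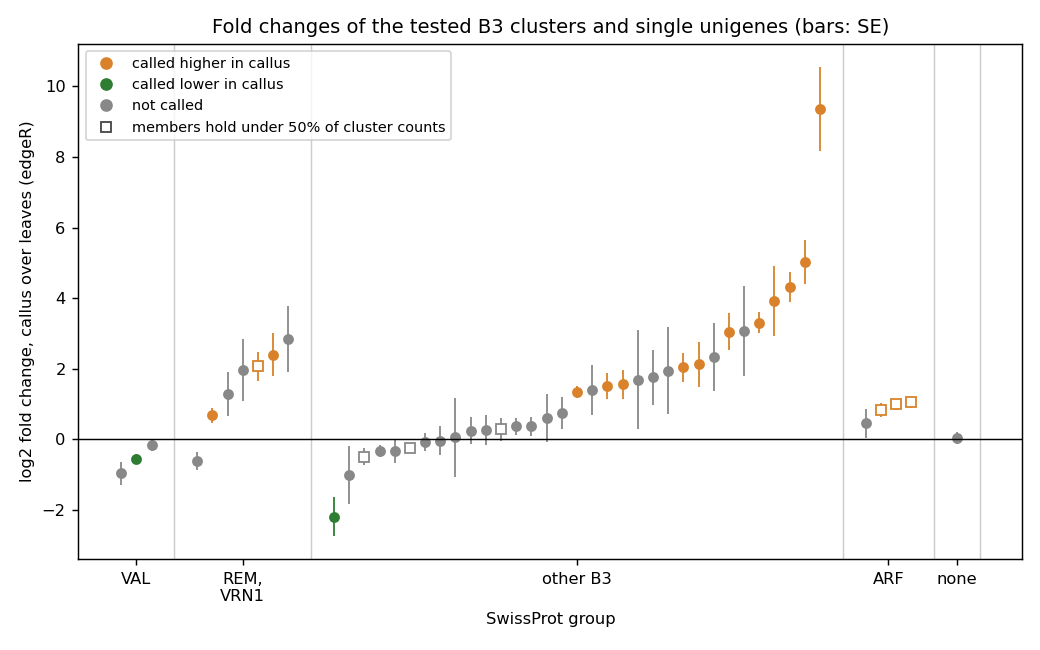
Fitted log2 fold change of callus over leaves (vertical axis) of the 48 tested clusters and single unigenes, ordered within SwissProt groups (horizontal axis), with SE as bars. Orange marks the 17 features called higher and green the 2 called lower by edgeR, and open squares mark clusters in which other contigs hold most of the counts. The highest point, CL3821, had no count in leaves, so its fitted value is no measure of size.

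Of the 3 clusters of VAL repressors, 1 was called lower in callus and 2 were not called, beside 20.8% called lower of all features tested. A count of 1 among 3 is too small to set against that share. Their median log2 fold change was -0.55, against -0.05 over all features. CL3860, matched to VAL2, had FPKM values of 9.95, 14.5 and 12.8 in leaves and 9.55, 7.45 and 7.55 in callus, summed over its 6 labelled contigs. In FPKM all 3 callus libraries were below the leaf libraries, narrowly so for callus replicate 1. The counts of these 6 contigs overlapped, with 501 in leaf replicate 1 and 544 in callus replicate 1. Over all 8 contigs the scaled counts of callus lay below those of leaves, and the cluster was called lower (log2 fold change -0.55 ± 0.14, SE, edgeR adjusted p = 0.0221). The call was lost in DESeq2 (adjusted p = 0.109), with only its 6 labelled contigs of 8 summed (edgeR adjusted p = 0.101), without callus replicate 2 (0.112) and without callus replicate 3 (0.119).

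CL609, the other VAL2 cluster, had 8.20, 20.3 and 23.1 FPKM in leaves and 8.88, 11.6 and 10.3 in callus. Leaf replicate 1 lay below all callus libraries while the other leaf libraries lay above them. Its log2 fold change of -0.96 ± 0.32 missed the threshold (edgeR adjusted p = 0.055). CL1949, the VAL1 cluster and the most abundant of the group on average, was level. Its 3 labelled contigs had 17.9, 13.8 and 16.8 FPKM in leaves and 16.4, 16.9 and 15.4 in callus, for a log2 fold change of -0.08 (edgeR adjusted p = 0.68). The whole cluster, which also holds contigs of the bHLH factor PIF1, gave -0.17 ± 0.15 (edgeR adjusted p = 0.384) with overlapping libraries. Of the 3 labelled contigs, Contig5 carries the helix-loop-helix entry of Pfam and Contig6 is matched to the rice protein Os07g0563300.

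The clearest fall of a whole member was that of Unigene26082, whose match is the rice protein Os07g0563300. The same rice name was given to single contigs of CL609, CL3860 and CL1949 and to the 3 labelled contigs of CL9806, a cluster that was not called (log2 fold change -0.07, edgeR adjusted p = 0.838). Unigene26082 had 22.4, 9.68 and 5.57 FPKM in leaves and 1.85, 3.88 and 3.07 in callus. The leaf libraries differed widely among themselves, but each lay above each callus library. The log2 fold change was -2.19 ± 0.55 (SE, edgeR adjusted p = 0.0213). The call was lost without callus replicate 1 (edgeR adjusted p = 0.0775), 2 (0.062) or 3 (0.0853), and held in DESeq2 (adjusted p = 0.00365).

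Single contigs of the VAL2 clusters did not all follow the sums, and a difference in contig use was not tested. In CL3860, Contig2 had expected counts of 89.4, 65.2 and 73.8 in leaves and 223, 285 and 271 in callus, and was called higher in callus (log2 fold change 1.72 ± 0.31, edgeR adjusted p = 0.0138) although the summed cluster was lower. This call was lost without callus replicate 2 (0.0707) or 3 (0.0764). Its sister Contig3 had 111, 231 and 163 counts in leaves and 42.6, 3.55 and 0 in callus (edgeR adjusted p = 0.143). The callus libraries were all below the leaf libraries for Contig3, but they spread too far among themselves for a call. Contig5 had 0 counts in leaf replicate 1 and callus replicate 1 and 122 and 182 in leaf replicates 2 and 3.

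In CL609, Contig2 was called lower in callus. It had 705, 617 and 439 counts in leaves and 77.7, 149.7 and 153 in callus, for a log2 fold change of -2.27 ± 0.38 (SE, edgeR adjusted p = 0.0117). Without callus replicate 2 or 3 the edgeR adjusted p was 0.06 and 0.0644. Contig3 had 38.7, 104 and 13.2 counts in leaves and 0, 0 and 7.04 in callus and was not called (edgeR adjusted p = 0.0918). Both were lower in each callus library than in each leaf library. Contig1 was listed at 0 in all callus libraries and in leaf replicate 1, but had 281 and 384 counts in leaf replicates 2 and 3. Contig4 was likewise 0 in leaf replicate 1, with 338 and 722 counts in the other leaf libraries and between 451 and 563 in callus. In leaf replicate 1, then, 2 contigs of this cluster were at 0 that had counts in the other leaf libraries. RSEM divides reads between similar contigs, so single contigs are less certain than their sum.

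**Figure D3:**
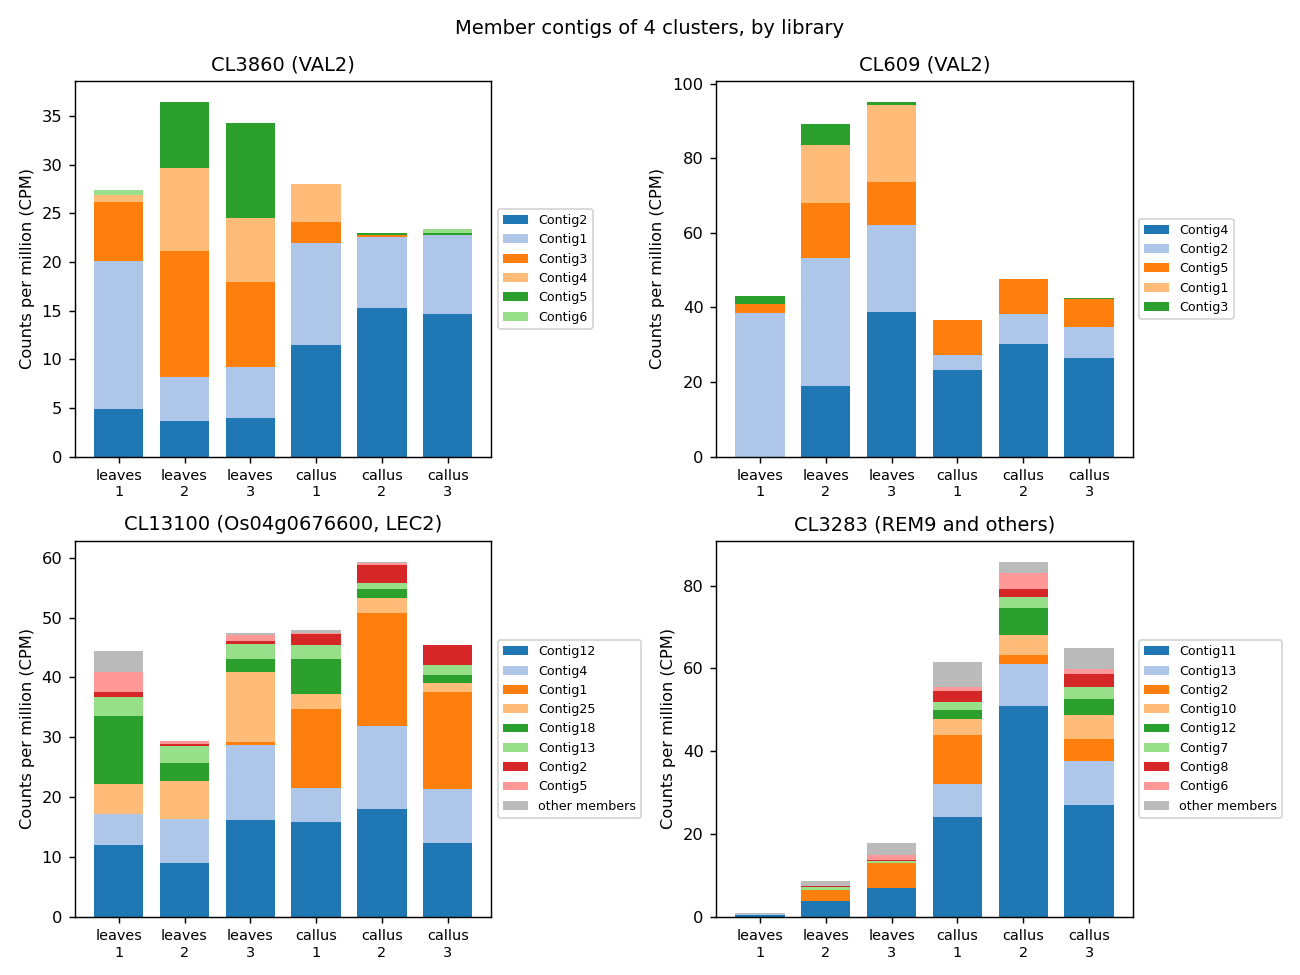
Level in CPM (vertical axes from 0) for the labelled contigs of CL3860, CL609, CL13100 and CL3283 in each of the 6 libraries (horizontal axes). Each colour is 1 contig, with the smaller ones pooled in grey. Contig2 takes a larger part of CL3860 in callus, Contig1 and Contig4 of CL609 are missing in leaf replicate 1, Contig1 of CL13100 is nearly limited to callus, and the whole of CL3283 is larger in callus.

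LEC2 was represented by CL13100, with 5 contigs matched to LEC2 and 5 to the rice protein Os04g0676600 that carry LEC2 or LEC2-like names in NR. The cluster as assembled joined them with contigs of a CLE peptide, retroelements and a TOR-associated protein, and labelled contigs held 33.8% of its counts. Summed over the 10 labelled contigs, FPKM was 13.8, 9.06 and 14.8 in leaves and 14.5, 18.9 and 14.5 in callus. The tissues overlapped in this sum, and the log2 fold change of the labelled contigs was 0.24 ± 0.21 (edgeR adjusted p = 0.385). The whole cluster had the opposite sign, -0.26 ± 0.14 (edgeR adjusted p = 0.167), with every callus library below every leaf library in scaled counts, and was not called either.

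CL13100 was the single cluster with labelled contigs called in both directions. Contig1 had 0, 0 and 9.36 counts in leaves and 259, 351 and 299.8 in callus, a log2 fold change of 6.57 ± 1.48 (SE, edgeR adjusted p = 0.0249). Contig2 had 13.0, 7.85 and 9.11 counts in leaves and 34.5, 54.4 and 63.3 in callus, a log2 fold change of 2.26 ± 0.51 (edgeR adjusted p = 0.0246). Contig25 went the other way, with 90.1, 115 and 221 counts in leaves and 49.0, 48.8 and 28.7 in callus (log2 fold change -1.79 ± 0.51, edgeR adjusted p = 0.0489). In none of these 3 contigs did the tissues overlap. The NR match of all 3 was LEC2 or LEC2-like. Contig4 (log2 fold change 0.17, edgeR adjusted p = 0.824) and Contig18 (-0.89, adjusted p = 0.512), with the same rice match, were not called, nor were the LEC2 contigs tested, Contig12 (0.31, adjusted p = 0.516) and Contig13 (-0.78, adjusted p = 0.293). None of the 3 calls held in all 6 fits without a library: Contig1 held in 3 of them, and Contig2 and Contig25 in 1 each.

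Of 15 clusters with at least 2 tested labelled contigs, 7 held a contig called higher, 3 held a contig called lower and 6 held no called contig. The same numbers, and that of clusters called in both directions, were not counted over all clusters. An excess among the members therefore cannot be read from them. The third of the clusters with a lower contig was CL7295 (Os03g0184500), whose Contig1 had 119, 163 and 96.3 counts in leaves and 44.8, 38.8 and 27.6 in callus. This contig was lower in callus without overlap (log2 fold change -1.82 ± 0.45, edgeR adjusted p = 0.0334), while the sum of CL7295 was not called (-0.34, edgeR adjusted p = 0.147). The call of the contig was lost without callus replicate 1 (0.0799), 2 (0.126) or 3 (0.144) and without leaf replicate 2 (0.0709).

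Among the REM and VRN1 features, 7 of 10 were tested, 3 were higher in callus and 0 were lower, beside 22.0% and 20.8% of all features tested, with a median log2 fold change of 1.97. REM16 was the most abundant of those called. Its cluster, CL3588, had 25.1, 15.1 and 21.4 FPKM in leaves and 28.4, 37.6 and 39.6 in callus. The lowest callus library lay just above the highest leaf library, and the log2 fold change was small, 0.68 ± 0.21 (SE, edgeR adjusted p = 0.0413). The adjusted p was above the threshold without callus replicate 2 (0.0976) or 3 (0.115) and without leaf replicate 2 (0.0673) or 3 (0.0683). Its contigs again differed between libraries of 1 tissue. Contig2 had 165 counts in callus replicate 1 and 0 in the other callus libraries, and Contig4 had 0 in callus replicate 1 and all leaves but 57.3 and 47.0 in callus replicates 2 and 3.

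CL3283, a set of 16 contigs with matches to REM9 and to rice and Arabidopsis B3 loci, had the highest summed FPKM of the B3 features in callus. It had 0.62, 6.42 and 13.4 FPKM in leaves and 45.3, 63.1 and 48.6 in callus. The callus libraries were close to each other and far above the leaf libraries, which themselves spread over a wide range, and the test just missed the threshold (log2 fold change 2.84 ± 0.93, edgeR adjusted p = 0.0503, DESeq2 adjusted p = 0.00483). 5 of its contigs were called higher in callus and 0 lower. Contig10 had 1.21, 0 and 0 counts in leaves and 72.8, 91.9 and 106 in callus (log2 fold change 7.58 ± 1.00, edgeR adjusted p = 0.00783). Contig13 had 2.79, 2.83 and 0 counts in leaves and 156, 191 and 195 in callus (6.34 ± 0.99, edgeR adjusted p = 0.0104). Both were close to 0 in every leaf library, and each kept its call in at least 4 of the 6 fits without a library.

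VRN1 matches were found in 5 features. CL698 had, over its labelled contigs, 0.46, 0.33 and 0.66 FPKM in leaves and 2.42, 1.84 and 2.47 in callus. Its labelled contigs hold 4.15% of the counts of a cluster whose other contigs are matched mainly to ferric reduction oxidases, and summed alone they were called higher (log2 fold change 2.33 ± 0.57, SE, edgeR adjusted p = 0.0194), against 2.07 for the whole cluster (edgeR adjusted p = 0.00948). Of the labelled contigs, Contig2 was itself matched to the oxidase, and the VRN1 contig with the counts, Contig9, had 16.5, 11.7 and 14.7 in leaves and 72.6, 35.4 and 63.2 in callus (log2 fold change 1.91 ± 0.52, edgeR adjusted p = 0.042). The call of Contig9 was lost in each of the 6 fits without a library (edgeR adjusted p between 0.0655 and 0.154).

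Unigene13685, also a VRN1 match, was low in both tissues, with 0.29, 0.16 and 0.09 FPKM in leaves and 0.57, 1.69 and 0.87 in callus. It was called higher without overlap (log2 fold change 2.40 ± 0.61, edgeR adjusted p = 0.0225), and the call was lost without callus replicate 2 (0.0831) or 3 (0.0678) and without leaf replicate 2 (0.0661) or 3 (0.0579). CL9614 (1.63 ± 1.23 FPKM in leaves and 5.18 ± 1.22 in callus, SD, n = 3) and Unigene613 (0.373 ± 0.291 and 0.967 ± 0.196) had all callus libraries above all leaf libraries but were not called (edgeR adjusted p = 0.117 and 0.142). CL10870 held a VRN1 contig with 36.2 counts in leaf replicate 1 and 0 elsewhere, and its sum was not called (log2 fold change 0.36, edgeR adjusted p = 0.242). Its Contig3, matched to At1g16640, was higher in callus (39.7, 32.5 and 18.7 counts in leaves and 119, 164 and 160.2 in callus, edgeR adjusted p = 0.0199).

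The B3 proteins named by locus alone made up most of the features higher in callus. Of 40 such features, 33 were tested, 11 were higher and 1 (Unigene26082) was lower, beside 22.0% and 20.8% of all features tested, with a median log2 fold change of 1.33. Functions of these loci are not described here beyond their B3 domain.

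Unigene32526, matched to Os03g0120900, had the smallest p of the family at both levels. It had 0.90, 1.11 and 1.10 FPKM in leaves and 13.1, 11.5 and 8.29 in callus. The tissues were far apart and the leaf libraries nearly equal, and the log2 fold change was 3.31 ± 0.29 (SE, edgeR adjusted p = 0.000907). It was the single member past the stricter threshold of an adjusted p of 0.001 and a 2-fold change, which 2.48% of all features passed, and its call held in each fit without a library.

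3 members were near the limit of detection in leaves and moderate in callus. CL5624 (Os06g0112300) had 2 counts in each leaf library and 42, 56 and 42 in callus, which are 0.15, 0.16 and 0.15 FPKM against 3.02, 4.11 and 3.17. Its log2 fold change was 4.32 ± 0.43 (SE, edgeR adjusted p = 0.00127). Unigene17420 (Os05g0481400) had 1, 1 and 2 counts in leaves and 27, 69 and 61 in callus (5.02 ± 0.63, edgeR adjusted p = 0.00244). Unigene33131 (At3g19184) had 8, 10 and 10 counts in leaves and 44, 103 and 115 in callus, for a log2 fold change of 3.06 ± 0.52 (edgeR adjusted p = 0.00605). Callus replicate 1 was the lowest callus library for Unigene17420 and Unigene33131 but still far above the leaf libraries. The calls of CL5624, Unigene17420 and Unigene33131 held in each cluster-level fit without a library. At the level of single contigs they were lost without callus replicate 3 (edgeR adjusted p = 0.0516 for Contig1 of CL5624, 0.0565 for Unigene17420 and 0.0744 for Unigene33131). That of Unigene33131 was also lost there without callus replicate 2 (0.0677).

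CL527 (Os03g0184500 and Os06g0194400) was the most abundant of the locus-named features over both tissues. Its labelled contigs had 6.80, 9.28 and 9.64 FPKM in leaves and 17.3, 25.3 and 25.1 in callus. The tissues did not overlap, and the log2 fold change was 1.33 ± 0.17 (SE, edgeR adjusted p = 0.00271) for all 9 contigs and 1.13 ± 0.21 (edgeR adjusted p = 0.00837) for the 6 labelled ones. 3 of its contigs were called higher and 0 lower.

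CL12846 (At4g34400) had 3.42, 2.05 and 3.19 FPKM in leaves and 7.66, 7.90 and 9.88 in callus (log2 fold change 1.51 ± 0.37, edgeR adjusted p = 0.0192). The tissues did not overlap. Its call was lost without callus replicate 2 (0.0557) or 3 (0.0796).

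3 single unigenes with a match to Os11g0197600 were higher in callus at different levels. Unigene19570 had 3.41, 1.13 and 2.09 FPKM in leaves and 5.86, 7.85 and 7.07 in callus (log2 fold change 1.56 ± 0.41, edgeR adjusted p = 0.0258). Unigene19568 had 0.36, 0.50 and 0.30 in leaves and 1.35, 2.07 and 1.83 in callus (2.04 ± 0.41, edgeR adjusted p = 0.0105). Unigene20988, the shortest of them with a REM17-like name in NR, had 0.29, 0 and 0 in leaves and 2.05, 1.26 and 1.89 in callus (3.92 ± 1.00, edgeR adjusted p = 0.0224). No library of leaves reached the callus range in any of them. Without callus replicate 2 or 3 the adjusted p was 0.0504 and 0.0514 for Unigene19568, 0.0825 and 0.0802 for Unigene19570 and 0.0655 and 0.0845 for Unigene20988. Without callus replicate 1 and without leaf replicate 3 it was 0.0566 and 0.0583 for Unigene19570 and 0.073 and 0.0505 for Unigene20988, and without leaf replicate 2 it was 0.0567 for Unigene20988.

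Unigene29668 (Os12g0591400) had 0.76, 0.16 and 0.40 FPKM in leaves and 1.27, 2.00 and 2.88 in callus (log2 fold change 2.13 ± 0.64, edgeR adjusted p = 0.0393). It was called in 1 of the 6 fits without a library, that without leaf replicate 1, and the adjusted p of the others lay between 0.0622 and 0.131.

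**Figure D4:**
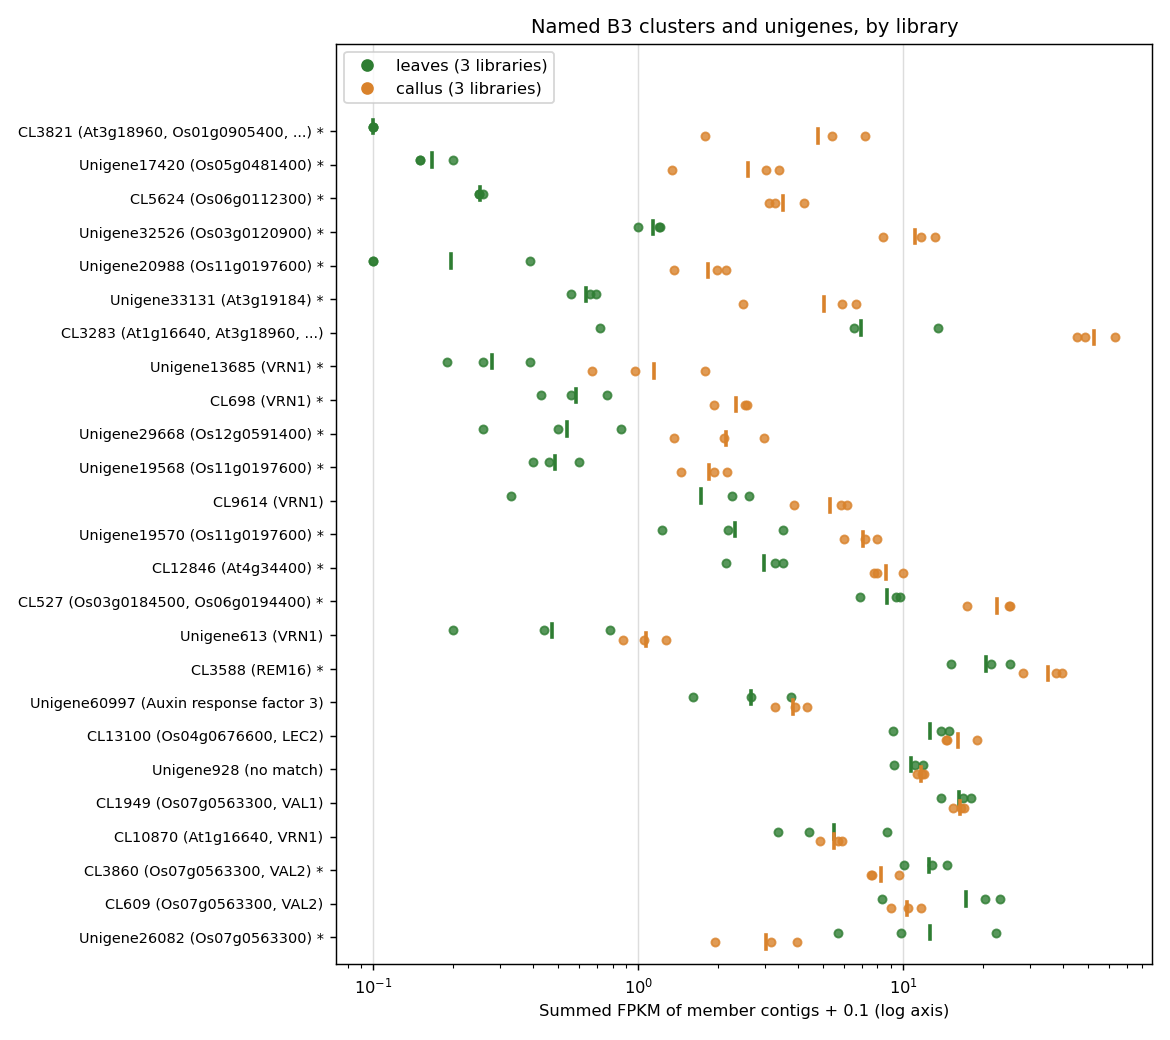
Summed FPKM of the labelled contigs plus 0.1 (horizontal log axis) of the named clusters and single unigenes, with the SwissProt match in brackets and * for an edgeR call. Points are libraries and short vertical lines are means of leaves (green) and callus (orange). Of the called features named by rule, CL908 is not drawn. Its labelled contig had means of 1.94 FPKM in leaves and 0.783 in callus, while its cluster was called higher. Among those drawn, Unigene26082 and the VAL2 clusters are at the lower end, and CL3821, Unigene17420 and CL5624 with near 0 FPKM in leaves are at the upper end.

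Not all members differed between the tissues. Unigene928, the most abundant member without a SwissProt match, had 11.8, 10.98 and 9.17 FPKM in leaves and 11.2, 11.9 and 11.7 in callus, for a log2 fold change of 0.03 ± 0.18 (SE, edgeR adjusted p = 0.903). Its libraries overlapped. Among the locus-named features CL10244 had a mean of 10.3 ± 1.05 FPKM in leaves and 14.2 ± 3.47 in callus (SD, n = 3) and CL11881 had 9.45 ± 5.98 and 11.2 ± 1.35, and neither was called (edgeR adjusted p = 0.309 and 0.944).

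8 members were listed at 0 in all leaf libraries with at least 30 summed counts in callus, and 4 were at 0 in all callus libraries with at least 30 in leaves. Without this minimum the numbers were 22 and 10. The same numbers over all unigenes were not counted, so an excess particular to the members cannot be read from them. The 3 labelled contigs of CL3821 among the 8 (Contig3, Contig4 and Contig5), named REM10-like in NR, belong to a cluster with 0 counts in leaves throughout. CL3821 had 33.0, 133 and 95.3 counts in callus, or 1.68, 7.09 and 5.27 FPKM, and was called higher (edgeR adjusted p = 0.00656). With the floor for the leaves set at 3 counts in all, its callus level was at least 84.4-fold higher.

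CL3283 gave 2 more of the 8. Its Contig12 had 43.1, 121 and 71.3 counts in callus and was at least 76.2-fold higher (edgeR adjusted p = 0.0114), and its Contig4 had 42.4, 33.2 and 58.0 and was at least 43.2-fold higher (edgeR adjusted p = 0.0106). Contig1 of CL1981 (Os06g0194400) had 30.3, 70.0 and 65.3 counts in callus and was at least 53.5-fold higher (edgeR adjusted p = 0.0115), while another contig of CL1981, Contig4, had counts in 2 leaf libraries. These 3 contigs had counts in each callus library. The remaining 2, Contig4 of CL3588 and Unigene19718 (Os06g0112300), were 0 in callus replicate 1 too and were not tested, with summed counts that put them at least 33.7-fold and 12.1-fold higher in callus.

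In the other direction the 4 members rested on 1 or 2 leaf libraries each, and none was tested. Contig1 of CL609 had counts in leaf replicates 2 and 3, as given above, and was at least 229-fold lower in callus. Contig3 of CL527 had 98.7 counts in leaf replicate 2 alone, and Contig1 of CL10870 and Contig6 of CL7295 had 36.2 and 40.9 counts in leaf replicate 1 alone. Sister contigs of each of these 4 were present in callus.

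Of the 8 ARF members, 2 could be tested as single unigenes, and neither was called. The most abundant was Unigene60997 (ARF3), with 3.66, 1.51 and 2.56 FPKM in leaves and 3.19, 3.82 and 4.23 in callus. Its tissues overlapped (log2 fold change 0.45 ± 0.40, edgeR adjusted p = 0.397). At the cluster level 3 of 4 tested ARF features were called higher in callus, beside 22.0% of all features tested, but the contigs that carry the calls have another family label. CL3627 (log2 fold change 1.05, edgeR adjusted p = 0.00383) and CL8218 (0.83, edgeR adjusted p = 0.0204) consist almost wholly of ARF6 and ARF19 contigs labelled ARF, and ABI3VP1 contigs held 0.143% and 0.101% of their counts. The call of CL8218 was lost without callus replicate 2 (0.0743) or 3 (0.0642). CL908 (ARF19) was higher by 0.99 ± 0.17 (edgeR adjusted p = 0.00593), while its 1 labelled contig, with 3.95, 1.65 and 0.21 FPKM in leaves and 1.44, 0.41 and 0.50 in callus, had a log2 fold change of -1.33 ± 1.03 (edgeR adjusted p = 0.333). The direction of CL908 is therefore opposite for the labelled contig and for its cluster.

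Genes that act with B3 proteins in other plants were counted from lists of SwissProt names. Polycomb subunits and partners numbered 57 tested unigenes, of which 4 were higher and 5 lower in callus, 7.02% and 8.77% beside 14.2% and 12.3% of all unigenes tested, with a median log2 fold change of -0.43. VERNALIZATION INSENSITIVE 3, a partner of Polycomb in the silencing of FLC, had 0.17 ± 0.115 FPKM in leaves and 2.26 ± 1.10 in callus (SD, n = 3) and was higher in callus (log2 fold change 3.68 ± 0.82, edgeR adjusted p = 0.0241). Contig18 of CL1567, matched to EMBRYONIC FLOWER 2, a Polycomb subunit, had 8.53 ± 1.32 and 2.66 ± 0.488 FPKM and was lower (-1.69 ± 0.33, edgeR adjusted p = 0.0167). The other tested contigs of that name, all of CL1567, were not called. Of them, Contig2 (2.90, edgeR adjusted p = 0.176) and Contig17 (1.00, 0.624) had a positive sign and Contig3, Contig5, Contig7 and Contig8 a negative one. Many of the 57 were contigs of shared clusters, such as CL1567, CL4999 and CL6525.

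Genes named for embryo and seed maturation, a programme that the LEC2 network controls in Arabidopsis, numbered 52 tested unigenes. Of these, 10 were higher and 4 lower, 19.2% and 7.69% beside 14.2% and 12.3% of all unigenes tested. The median was -0.51, so that the median and the majority of calls differed in sign. Many of the 52 carried the same name, vicilin-like seed storage protein At2g18540, several as contigs of a shared cluster. The median and the number tested therefore lean on that name, but few of the calls carried it. Several of those higher in callus were late embryogenesis abundant proteins, among them Contig1, Contig2 and Contig3 of the shared cluster CL2885. Control of the list by LEC2 was not tested. 1 of 3 tested oleosins, proteins of seed oil bodies, had 0.0667 ± 0.0577 FPKM in leaves and 2.49 ± 0.811 in callus (log2 fold change 5.00 ± 0.81, edgeR adjusted p = 0.0111). The other 2, more abundant in leaves, were not called, with 6.36 ± 0.733 and 1.14 ± 1.41 FPKM for Unigene17836 (-2.51 ± 0.95, edgeR adjusted p = 0.0991) and 5.60 ± 2.46 and 2.94 ± 0.835 for Unigene29006 (-0.94 ± 0.47, edgeR adjusted p = 0.183). AGL15, a MADS-box protein that promotes somatic embryogenesis in Arabidopsis, had 0.04 ± 0.0346 and 1.72 ± 0.823 (5.19 ± 0.89, edgeR adjusted p = 0.0124). Dehydrin HIRD11 was lower, with 149, 126 and 309.9 FPKM in leaves and 19.98, 8.34 and 8.89 in callus (-3.94 ± 0.59, edgeR adjusted p = 0.00983). No unigene was matched by name to LEC1, WRI1, BABY BOOM or SERK1.

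Flowering and auxin synthesis genes, listed as downstream of REM, VRN1, VAL and NGA proteins in other plants, numbered 18 tested unigenes. Of these, 6 were higher and 3 lower, 33.3% and 16.7% beside 14.2% and 12.3% of all unigenes tested, with a median of 3.19. No member was matched to NGA, and control of these genes by the members was not tested. FLC, the flowering repressor that VAL1 and VRN1 silence in Arabidopsis, was matched by 4 unigenes. Unigene3895 had 0.13, 0 and 0.07 FPKM in leaves and 5.82, 13.5 and 8.67 in callus and was called higher (6.91 ± 0.98, edgeR adjusted p = 0.00899). The most abundant FLC contig, Contig2 of CL1305, had 13.9, 13.5 and 0 in leaves and 145, 295 and 240.1 in callus. Its tissues did not overlap, but leaf replicate 3 was at 0 while the other leaf libraries were not, and it was not called (edgeR adjusted p = 0.074). A unigene of SHI RELATED SEQUENCE 1 and 4 unigenes of YUCCA enzymes, which make auxin, were the other 5 higher in callus. Among the YUCCA unigenes, Contig1 and Contig2 of CL8552 belong to the same cluster. The 3 lower ones were 1 unigene of APETALA 1, a floral identity gene, and 2 contigs of SOC1, a promoter of flowering. The more abundant SOC1 contig had 29.1, 16.5 and 21.1 FPKM in leaves and 7.87, 5.80 and 11.6 in callus (log2 fold change -1.39 ± 0.37, edgeR adjusted p = 0.0395). Cyclin B and CDKB genes of dividing cells, given as a description of the callus, took between 90.9 and 115 CPM in leaves and between 161 and 199.8 in callus, and their part in the B3 differences was not tested.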

How the data were processed

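RNA-seq libraries of leaves (3) and callus (3) were used, grouped by the tissue in the labels. The authors assembled reads into unigenes, aligned them with Bowtie2 2.2.5 and estimated abundance with RSEM 1.2.8. The deposited expected counts are RSEM estimates without normalization. The deposited FPKM values divide them by length and library total and were used for levels, and the deposited TPM values were not used. The deposited series table also holds the authors' log2 fold change, p-value and q-value for each unigene, which were not used, and its length and annotation, from which the members were taken. The members and lists were chosen with earlier results of these data known.

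Expected counts were rounded and tested with edgeR 4.0.16 (R 4.3.3; TMM scaling, filterByExpr, quasi-likelihood test, Benjamini-Hochberg over all features tested) at the unigene level and with all contigs of a CL number summed. The procedure was tested on simulated data that varied less between replicates than these libraries, so that test does not show how it performs at their spread. A call needed an adjusted p of 0.05 or less. The 3 libraries of a tissue are biological replicates per the study's methods. Library totals were 17963458 to 19444638 counts, so that unigenes with few counts were measured with low precision.

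Named were all called clusters and single unigenes whose mean in the higher tissue reached 1 FPKM, the most abundant of each SwissProt group, all VAL, LEC2 and VRN1 matches, members at 0 in 1 tissue with at least 30 counts in the other, the 5 smallest p in each direction and the contigs of clusters called in both directions. CL3627, CL8218, CL10244, CL11881, other contigs of the named clusters and the genes of the lists were named after their values were seen. Lists (Polycomb and partners, embryo and seed maturation, flowering and downstream, leaf markers, dividing-cell genes) were matched by SwissProt protein name, and names that only contain a list name (ANTAGONIST OF LIKE HETEROCHROMATIN PROTEIN 1, ABI5-like, ULTRAPETALA 1 and the RING1 ligases other than RING1a) were left out after values were seen. Of the leaf markers, 1 of 73 tested was higher and 27 lower in callus, and of the dividing-cell genes 6 of 12 were higher and 0 lower.

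Alternatives were DESeq2 1.42.0, limma 3.58.1 with a trend on log2(FPKM + 1) and log2(FPKM + 0.01), other size factors, no filter, other quasi-likelihood settings, a stricter threshold, removal of unigenes matching Arachis, labelled contigs alone, and each library left out. Where a tissue was at 0, the fold is a lower bound with a floor of 3 counts summed over its libraries. Tables and figures were made with Python 3.11.15, pandas 2.3.3, numpy 2.4.6 and matplotlib 3.10.9.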

Additional observations from a re-analysis of the deposited data

How the results depend on the processing

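At the contig level the counts of members higher and lower in callus, 23 and 4, became 0 and 0 at an adjusted p of 0.001 with a 2-fold change, which 0 of all unigenes passed, 14 and 1 without the filter on low counts, and ranged from 1 to 25 and from 0 to 5 with a library left out. The 4 lower members became 8 in DESeq2 and 2 with DESeq2 size factors in edgeR. All 23 members higher in edgeR were also higher in DESeq2, which called 34. At the cluster level the counts of 17 and 2 became 1 and 0 at the stricter threshold and ranged from 9 to 18 and from 0 to 3 with a library left out. The 2 lower features became 1 in DESeq2, 1 without the filter and 1 with labelled contigs alone. Removal of unigenes matching Arachis changed none of these counts. For the lists the stricter threshold left 0 in each direction. DESeq2 gave 11 higher and 14 lower for Polycomb and partners, 16 and 14 for embryo and seed maturation and 10 and 3 for flowering. Over all unigenes with an adjusted p, DESeq2 called 14.6% higher and 14.9% lower. Among the called named members 1 value turned in direction, that of CL908, which was -1.33 with labelled contigs alone. Of those not called, CL13100 went from -0.26 to 0.24 and CL11881 from -0.04 to 0.13 in the same setting. The cause of these differences was not tested, beyond the lower number of samples when a library is left out. No paired analysis was possible because the labels give the tissues no shared replicate numbers.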
